A study of Mus musculus with 20 samples.

Results

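The motile cilia genes are 50 genes that build or control the moving cilium, and they were chosen by name and looked up by gene symbol in a table of RNA sequencing values from bulk tumour tissue. Of the 50, 39 stood under their listed symbol with values in the 8 BC (breast cancer) libraries, out of 15465 genes with such values. The other 11 were dynein heavy chains. Of these, 10 stood in the table under older Dnahc symbols and were matched by Ensembl identifier, and they are described beside the 39 but not counted among them. Dnah7a was not analysed here, and Dnah7b may share reads with near-identical copies.

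The samples were 4 BC lung metastases and the 4 BC primary tumours of the same mice, all labelled as 4T1 derived, from an orthotopic model, and taken at 28 days. 4T1 is a mouse mammary carcinoma line, so both groups share 1 tumour line, and the labels name no other allele or treatment for them. The series compares primary tumours with metastases of matched animals. Its 12 PDAC (pancreatic ductal adenocarcinoma) columns were not used here because their values do not stand beside their own gene symbols.

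Values are normalised read counts as deposited, scaled to about 1000000 per library, so a value of 1 is about 1 read per 1000000. Depth was 15447918 to 27051571 reads in lung metastases, against 25168386 to 28995834 reads in primary tumours, with the lowest in lung metastasis 3. The value of 1 read lay between 0.0356 and 0.0676 for lung metastases and between 0.0337 and 0.0397 for primary tumours. Markers of the lung were present where the labels place them: Sftpc, a surfactant protein of alveolar type 2 cells, lay between 3014 and 8152 in lung metastases, against 1.03 to 1.89 in primary tumours. In bulk tissue, fewer cells of a type and less RNA per cell cannot be told apart.

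Motile cilia cover the multiciliated cells of the airway, the ependyma and the oviduct, and in the airway their beat moves mucus. Each is a ring of doublet microtubules around a central pair; dynein arms on the doublets slide them, and radial spokes, rulers and nexin links set spacing and waveform. The transcription factor Foxj1 starts the motile programme, and RFX factors such as Rfx2 and Rfx3 act at cilia promoters through a motif called the X-box, an inverted repeat.

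Promoter sequences show that motif letter by letter in 4 members, among them Dnaic2 and Dynlrb2, whose levels differed between the groups. The sequences are from RefSeq (GRCm38.p6), run 5′ to 3′ on the strand of the gene, and carry 20 bases on each side; the capitals mark the inverted repeat. Its first base lies at position -33 from the annotated start of Dnaic2 (chr11:114727366-114727418, plus strand), -51 of Dynlrb2 (chr8:116504944-116504996, plus strand), -21 of Hydin (chr8:110266936-110266989, plus strand) and -29 of Tekt2 (chr4:126325685-126325737, minus strand). From another annotated start of Tekt2 the same repeat lies at -71.
Dnaic2: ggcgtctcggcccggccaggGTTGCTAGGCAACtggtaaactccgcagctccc
Dynlrb2: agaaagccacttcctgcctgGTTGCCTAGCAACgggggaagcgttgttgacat
Hydin: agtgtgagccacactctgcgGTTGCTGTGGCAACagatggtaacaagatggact
Tekt2: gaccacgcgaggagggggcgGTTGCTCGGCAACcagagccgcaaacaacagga

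The form shown was added after a first form gave no member, and its shares are a description of letters chosen with that result known. It was searched as GTTGCC then 0 to 3 bases then GCAAC, or its reverse complement, in the 300 bases from 250 before to 50 after each start. These 4 of the 40 members with a promoter in the table held it, 10% of them, against 0.34% of 27025 genes. The first form, GTTNCC then 0 to 3 bases then GGNAAC, is a different pattern and not a narrower one: it stood in 0 of 40 members and in 0.936% of all genes. The 7 letters GTTGCCA, on either strand, stood in 9 of 40 members (22.5%), against 5.02% of all genes: Dnah7b, Dnah10, Zmynd10, Iqcg, Hydin, Kif9, Tekt1, Mns1 and Lrriq1. In Hydin these letters overlap the repeat shown. The forkhead core GTAAACA stood in 1 member, Ak7, which is 2.5% of 40, against 4.05% of all genes. A match describes the letters of the window and not the binding of a factor.

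Summed over the 39 members, transcripts were about 3.18 times as abundant in lung metastases as in primary tumours. They were unevenly spread among the metastases. The sum was 405, 153, 552 and 159 in lung metastases 1 to 4, against 111, 90.5, 89.6 and 108 in primary tumours 1 to 4. The groups did not overlap, and metastases 1 and 3 stood far above metastases 2 and 4. The mean was 318 ± 195 in lung metastases and 99.8 ± 11.3 in primary tumours (SD, n = 4 each). Abundant members weigh most in this sum. Tppp3 averaged 71.5 in lung metastases and 8.35 in primary tumours. Ift172 averaged 36 and 34.4, and Rfx3 averaged 18.3 and 16.2, in the same order.

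**Figure D1:**
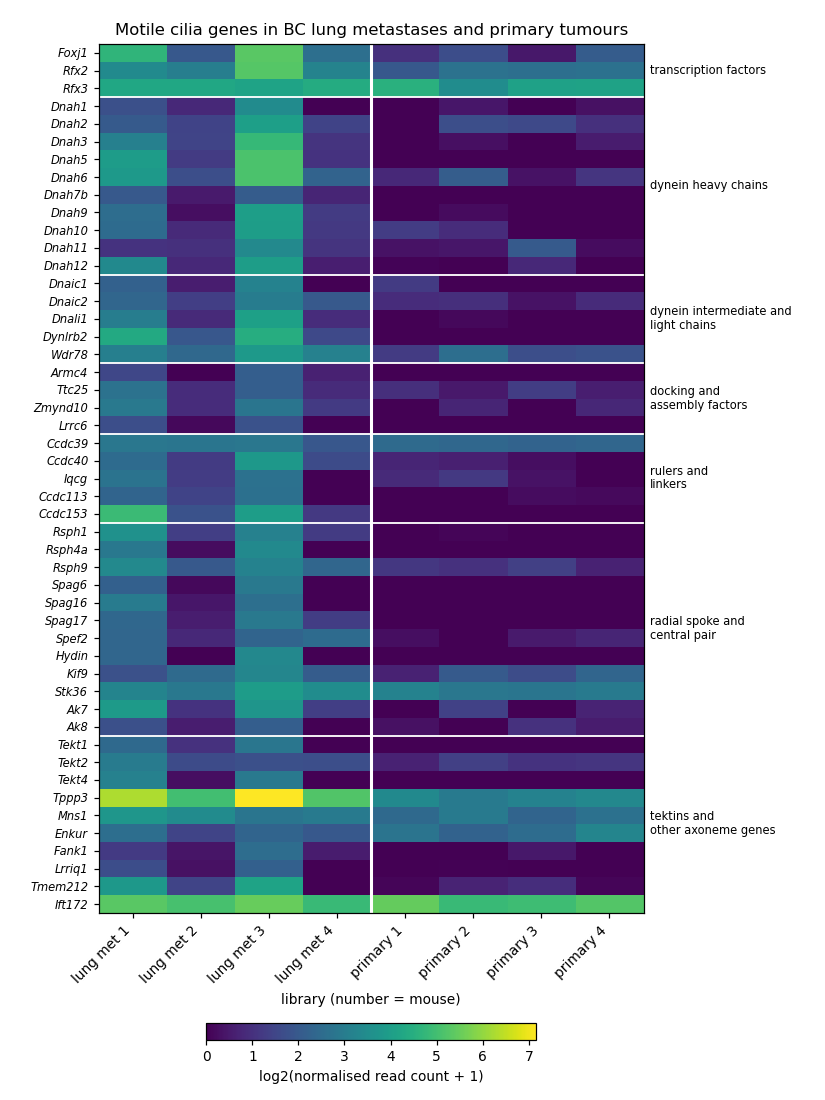
Level of each member, log2(normalised read count + 1), in lung metastases 1 to 4 and primary tumours 1 to 4, with members grouped by their role in the cilium. Columns lung met 1 and lung met 3 are brighter than lung met 2 and lung met 4 for most members, and 11 of the 39 members matched by symbol have no read in any primary tumour.

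Each gene was tested with limma on log2(value + 1), over the 14003 genes that reached 1 in 4 or more of the 8 libraries. Calls were made where the Benjamini-Hochberg adjusted p lay under 0.05. Of all genes tested, 7.18% were called higher and 1.96% were called lower in lung metastases. Among the 39 members, 20 were tested, 7 were called higher and 0 were called lower; 12 of the 20 (60%) had an unadjusted p under 0.05, against 23% of all genes tested. EdgeR and DESeq2 also called 0 members lower, against 1.48% and 3.69% of all genes. The 7 were Tppp3, Dynlrb2, Rsph9, Rsph1, Ccdc153, Dnaic2 and Ccdc40.

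The filter bears on that count. Of the 20 members tested, 5 entered through lung metastases alone (Dnaic2, Dynlrb2, Ccdc40, Ccdc153 and Rsph1), and such a gene had to differ. The deposited table holds only genes at 1 or more in at least 2 BC libraries, and 21 of the 39 members were under 1 in every primary tumour. Tested without the filter, 9 of the 39 were called higher, with Spag17 and Spef2 added, against 6.9% of 15465 genes. The counts are therefore a description of these members.

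Over the 39 members the median log2 change in the test without the filter was 1.41, and 1.62 where members without a primary tumour read were set at their lower bound, against -0.03 over all genes. These changes are on the log2(value + 1) scale, which understates those of low genes. The lowest metastasis lay above the highest primary tumour for 13 of 39 members, against 10.7% of all genes, and the opposite held for 0 of 39, against 7.09% of all genes. No read was found in any primary tumour for 11 of 39, against 1.29% of all genes. With a floor of 3 reads per library, which covers counting error only, the lung metastasis means of those 11 were at least 11.0 to 106-fold higher. Metastases 1 and 3 weigh most in these means, and the bounds do not hold for each metastasis. Armc4, Lrrc6, Rsph4a, Spag6, Spag16, Hydin, Tekt1 and Tekt4 had no read in at least 1 metastasis.

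**Figure D2:**
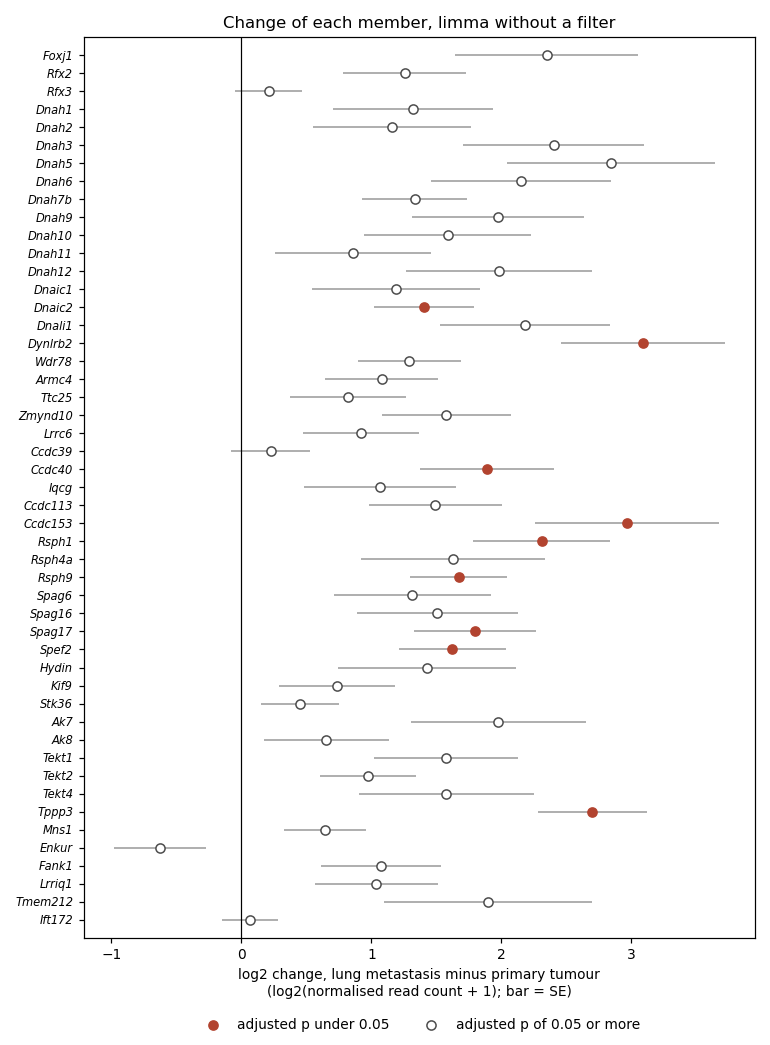
Change of each member between lung metastases and primary tumours (difference of mean log2(normalised read count + 1), n = 4 each), with the standard error as a bar, from limma without a filter. Filled points mark the 9 members with an adjusted p under 0.05; Enkur is the only point left of 0.

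The 3 transcription factors at the head of the programme had positive changes, and limma called none of them. Foxj1 had 24.7, 2.95, 39.5 and 5.13 in lung metastases 1 to 4, against 0.993, 2.21, 0.371 and 3.28 in primary tumours 1 to 4. Metastases 1 and 3 were high, metastasis 2 lay inside the range of the primary tumours, and the groups overlapped. The log2 change was 2.35 (SE 0.71, adjusted p = 0.0683), so Foxj1 was not called in this test. The adjusted p was 0.0564 in edgeR, 0.117 in limma blocked by mouse and 0.276 in edgeR with that block. DESeq2, which called 10.5% of all genes higher, gave an adjusted p of 0.000589.

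Rfx2 had 9.73, 7.33, 38.1 and 8.19 in lung metastases, against 2.94, 5.44, 5.09 and 5.39 in primary tumours. The groups did not overlap, but metastasis 3 stood alone above the rest, and the log2 change of 1.26 (SE 0.47) did not pass the threshold (adjusted p = 0.138). Rfx3, which serves motile and primary cilia alike, averaged 18.3 ± 1.37 in lung metastases and 16.2 ± 4.96 in primary tumours (SD, n = 4 each; adjusted p = 0.658).

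The axonemal dynein heavy chains are the motor subunits themselves, outer arm chains being Dnah5, Dnah9 and Dnah11 and the other members inner arm chains. Their sum over 10 genes was 64.2, 11.2, 178 and 12.6 in lung metastases 1 to 4, against 2.50, 7.65, 6.10 and 3.03 in primary tumours 1 to 4. Each metastasis lay above every primary tumour, and metastasis 3 was the highest for all 10 genes. Read counts over whole genes favour long transcripts, and these are among the longest of the table.

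Dnah5 had 14.6, 1.39, 33.9 and 1.05 in lung metastases and no read in the 4 primary tumours, which makes its lung metastasis mean at least 115-fold higher. Its groups did not overlap. The log2 change was 2.84 (SE 0.81), with an adjusted p of 0.0543 in limma, 0.046 in a fit blocked by mouse and 0.0247 in edgeR.

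Dnah3 had 7.71, 1.74, 27 and 1.09 in lung metastases, against 0, 0.237, 0 and 0.458 in primary tumours, with no overlap (log2 change 2.40, SE 0.71, adjusted p = 0.0621). Dnah9 had 4.94, 0.213, 15.1 and 1.39 in lung metastases, against 0, 0.158, 0 and 0 in primary tumours. Dnah7b had 2.97, 0.427, 3.25 and 0.672 in lung metastases and no read in primary tumours. In these 3 genes too the metastases all lay above the primary tumours, by little in metastasis 2 for Dnah9.

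The remaining heavy chains overlapped between the groups. Dnah6, the heavy chain with the highest level per kilobase of exon, had 13.3, 2.31, 34.3 and 3.87 in lung metastases, against 0.755, 3.35, 0.27 and 1.16 in primary tumours. Dnah11, which in people is linked to ciliary dyskinesia with normal-looking arms, stood at 9.33 in metastasis 3 and between 0.996 and 1.09 in the other metastases, against 0.176 to 3.07 in primary tumours. None of the 6 heavy chains tested was called by limma, where 4 had an unadjusted p under 0.05; edgeR called 2, against 6.02% of all genes higher, and DESeq2 called 3, against 10.5%. The median log2 change over the 10, without the filter, was 1.78.

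Among the intermediate and light chains of the dynein arms, 2 of 3 tested members were called higher, against 7.18% of all genes tested; both had entered the test through lung metastases alone. Dynlrb2 (ENSMUSG00000034467), a roadblock light chain, had 19.3, 2.85, 21.2 and 2.02 in lung metastases and no read in the 4 primary tumours. Its lung metastasis mean was thus at least 102-fold higher. All 4 metastases lay above every primary tumour, metastases 1 and 3 by far the most. Its log2 change was 3.09 (SE 0.63, adjusted p = 0.0126).

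Its close relative Dynlrb1 is a light chain of cytoplasmic dynein found in nearly all cells. It averaged 113 ± 31.7 in lung metastases and 122 ± 15.4 in primary tumours (SD, n = 4 each; log2 change -0.16, adjusted p = 0.709). The list of cytoplasmic dynein, dynactin and their regulators held 19 genes with values, among them Tppp, a relative of the member Tppp3. Tppp was called higher in limma, edgeR and DESeq2. Of the other 18 genes these called 0 in either direction, and 0 had an unadjusted p under 0.05 in limma.

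Dnaic2, an intermediate chain of the outer arm, had 4.19, 1.53, 7.03 and 2.98 in lung metastases, against 0.874, 0.947, 0.27 and 0.845 in primary tumours. There was no overlap, and the log2 change was 1.40 (SE 0.39, adjusted p = 0.0475). The call was a narrow one: blocking by mouse gave an adjusted p of 0.1, and edgeR gave 0.057. Its partner chain Dnaic1 had 3.68, 0.498, 8.04 and 0 in lung metastases, against 1.35 in primary tumour 1 and 0 in the other 3.

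Dnali1, a light intermediate chain of inner arms, had 7.24, 0.818, 15.8 and 0.882 in lung metastases and 3 reads in all in the primary tumours. The ratio of reads was 180 (95% exact interval 61.3 to 877, counting error only). Wdr78, of the intermediate chain family, averaged 8.35 ± 3.80 in lung metastases and 2.80 ± 1.55 in primary tumours (SD, n = 4 each; adjusted p = 0.0665), with overlap.

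The docking and assembly factors were low everywhere, and none reached the filter. Zmynd10, a cytoplasmic factor that helps dynein arms assemble, had 6.48, 0.889, 5.95 and 1.34 in lung metastases, against 0, 0.671, 0 and 0.74 in primary tumours, with no overlap (limma without the filter, adjusted p = 0.0781). Its partner Lrrc6 and the docking protein Armc4 had no read in any primary tumour and reached 2.50 and 3.38 in metastasis 3. Ttc25, also of the docking complex, had 5.50, 0.889, 3.38 and 0.84 in lung metastases, against 0.954, 0.394, 1.45 and 0.528 in primary tumours, with overlap.

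The rulers and linkers of the doublets split. Ccdc39 and Ccdc40 are partners that set the repeat length along the doublet. Ccdc40 had 4.63, 1.39, 13.2 and 2.10 in lung metastases, against 0.675, 0.552, 0.202 and 0 in primary tumours. The groups did not overlap (log2 change 1.89, SE 0.52, adjusted p = 0.048), and blocking by mouse gave an adjusted p of 0.0584. Ccdc39 averaged 5.29 ± 1.62 in lung metastases and 4.22 ± 0.306 in primary tumours (SD, n = 4 each; adjusted p = 0.683), and its groups overlapped. The difference between the changes of these partners was not tested.

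Ccdc153, a coiled-coil protein of the axoneme, had 28.3, 2.53, 14.9 and 1.26 in lung metastases and no read in the 4 primary tumours. Its lung metastasis mean was thus at least 106-fold higher. Every metastasis was above 0 and metastasis 1 was the highest (log2 change 2.97, SE 0.71, adjusted p = 0.0268). Iqcg, of the nexin link, had 5.57, 1.42, 5.34 and 0 in lung metastases, against 0.795, 1.30, 0.27 and 0 in primary tumours. Ccdc113 had 3.91, 1.71, 5.27 and 0 in lung metastases, against 0, 0, 0.169 and 0.141 in primary tumours. Both were missing from metastasis 4, which overlapped with the primary tumours.

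Radial spokes carry signals from the central pair to the dynein arms, and of the 3 spoke head members Rsph9 and Rsph1 were tested and called higher, against 7.18% of all genes tested. Rsph1 had passed the filter through lung metastases alone, and Rsph4a did not reach it. Rsph9 had 9.33, 2.99, 8.04 and 4.16 in lung metastases, against 1.23, 1.03, 1.58 and 0.599 in primary tumours. The groups lay well apart (log2 change 1.67, SE 0.37, adjusted p = 0.0177).

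Rsph1 had 11.3, 1.49, 7.91 and 1.39 in lung metastases, against 2 reads in all in the primary tumours, both in tumour 2. The ratio of reads was 280 (95% exact interval 77.2 to 2322, counting error only), and the log2 change was 2.31 (SE 0.54, adjusted p = 0.0221). Rsph4a had 6.37, 0.178, 9.60 and 0 in lung metastases and no read in primary tumours. Metastases 1 and 3 held nearly all of its reads.

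Of the central pair genes, Spag6, Spag16, Spag17 and Hydin had no read in any of the 4 primary tumours. Spag17 had 4.27, 0.498, 6.42 and 1.47 in lung metastases, and its mean there was at least 28.5-fold higher (limma without the filter, log2 change 1.79, SE 0.47, adjusted p = 0.0388). Hydin had 4.15, 0, 9.13 and 0 in lung metastases, so that metastases 2 and 4 could not be told from the primary tumours at this depth. Spag6 had 3.6, 0.107, 6.49 and 0 and Spag16 had 6.84, 0.356, 5.14 and 0 in lung metastases, again low in metastases 2 and 4.

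Spef2, a central apparatus protein, differed in where it was high: it had 4.15, 0.783, 3.99 and 4.66 in lung metastases, against 0.199, 0, 0.438 and 0.669 in primary tumours. Metastasis 4 was the highest, and the groups did not overlap (limma without the filter, log2 change 1.62, SE 0.41, adjusted p = 0.0337). The adenylate kinase Ak7 had 13.9, 1.07, 12.2 and 1.51 in lung metastases, against 0, 1.62, 0 and 0.634 in primary tumours, with overlap (log2 change 1.98, SE 0.68, adjusted p = 0.107). Its relative Ak8 had 2.37, 0.498, 3.38 and 0 in lung metastases, against 0.238, 0, 1.01 and 0.458 in primary tumours. Stk36, a kinase needed for the central pair, averaged 9.84 ± 3.46 in lung metastases and 6.69 ± 0.990 in primary tumours, and the kinesin Kif9 averaged 4.76 ± 2.78 in lung metastases and 2.47 ± 1.47 in primary tumours (SD, n = 4 each); both overlapped and neither was called.

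Tppp3, a tubulin-binding protein much used as a marker of ciliated airway cells, was the most abundant member per kilobase of exon. It had 76.4, 30.8, 142 and 36.4 in lung metastases, against 9.46, 6.71, 7.99 and 9.23 in primary tumours. The lowest metastasis was far above the highest primary tumour, and the log2 change was 2.70 (SE 0.42, adjusted p = 0.00296). Its relative Tppp, better known from oligodendrocytes, averaged 15.5 ± 9.42 in lung metastases and 0.756 ± 0.838 in primary tumours (SD, n = 4 each). Its log2 change was 3.14 (SE 0.51, adjusted p = 0.00364). Its highest libraries were metastases 3 and 4, not 1 and 3.

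Tektins are filaments inside the doublet wall. Tekt1 and Tekt4 had no read in primary tumours; Tekt1 had 4.43, 1.03, 6.08 and 0 and Tekt4 had 7.79, 0.213, 6.42 and 0 in lung metastases. Tekt2 had 6.84, 2.10, 2.37 and 2.31 in lung metastases, against 0.596, 1.54, 1.08 and 1.16 in primary tumours. Its groups did not overlap, metastasis 1 stood alone, and the change was not called (log2 change 0.97, SE 0.37, adjusted p = 0.142).

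Of the other axoneme genes, Tmem212 had 13, 1.74, 17 and 0 in lung metastases, against 0.0795, 0.631, 0.91 and 0.0704 in primary tumours. Fank1 reached 4.93 and Lrriq1 reached 3.58 in metastasis 3, and both lay at or under 0.371 in every primary tumour. Mns1, which lies in the doublet lumen, averaged 8.78 ± 3.14 in lung metastases and 5.13 ± 1.25 in primary tumours (SD, n = 4 each; adjusted p = 0.246).

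Enkur was the only member with a negative change, with 5.02, 1.74, 3.92 and 2.90 in lung metastases, against 5.76, 3.79, 4.75 and 8.66 in primary tumours. It was lower in the metastasis than in the primary tumour of the same mouse in 4 of 4 mice, but the groups overlapped and the change was not called (log2 change -0.63, SE 0.35, adjusted p = 0.312). Ift172, a carrier of intraflagellar transport used by all cilia, averaged 36 ± 7.01 in lung metastases and 34.4 ± 7.09 in primary tumours (SD, n = 4 each; log2 change 0.07, adjusted p = 0.881).

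The lung metastases differed among themselves in a regular way. Metastasis 3 was the highest metastasis for 25 of the 39 members, metastasis 1 for 12, metastasis 4 for 2 (Rfx3 and Spef2) and metastasis 2 for 0. Metastases 1 and 3 both lay above metastases 2 and 4 for 33 of 39 members (84.6%), against 23.0% of all genes. The exceptions were Rfx3, Wdr78, Spef2, Kif9, Stk36 and Mns1, and all but Spef2 reached 1 in at least 3 primary tumours.

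Within mice, 36 of 39 members were higher in the metastasis than in the primary tumour of mouse 1, 34 in mouse 2, 38 in mouse 3 and 22 in mouse 4. Over all genes these shares were 50.8%, 52.9%, 49.2% and 47.8%. Mouse 4 had the fewest members higher, and 13 of the 39 members, among them Hydin, Tekt4 and Tmem212, had no read in its metastasis.

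Expressed per kilobase of merged exon, which allows levels to be compared between genes, Tppp3 led in lung metastases with 38.7, followed by Dynlrb2 with 20.4, Tmem212 with 11.1, Foxj1 with 6.88, Ccdc153 with 5.78 and Ift172 with 5.44. Heavy chains lay between 0.0915 (Dnah7b) and 1.02 (Dnah6). In primary tumours the highest values per kilobase were 5.20 for Ift172 and 4.52 for Tppp3, while Dynlrb2 and Ccdc153 were at 0. Exon lengths came from a GRCm38 annotation and were matched by identifier.

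Lists of other cilium genes place the members. Among 24 tested genes of a further axoneme list, 1 (4.17%) was called higher and 0 lower, against 7.18% of all genes called higher. In limma 9 of the 24 (37.5%) had an unadjusted p under 0.05, against 23% of all genes tested. The median log2 change was 0.35, against -0.06 over all genes tested. The call was Fam183b, a ciliated cell protein, with 5.81, 1.53, 14.1 and 1.01 in lung metastases, against 0, 0, 0 and 0.493 in primary tumours (adjusted p = 0.0482). With any library left out, Fam183b was no longer called or no longer reached the filter. In limma without the filter it stayed called without lung metastasis 2, 3 or 4 (adjusted p = 0.0155 to 0.043). There it was not called without lung metastasis 1 (0.118) or without any 1 primary tumour (0.0922 to 0.12). In limma without the filter 4 of 63 (6.35%) were called higher, against 6.9% of all genes, so that limma count lies near that of genes in general. The added ones were Pifo (listed as 1700027A23Rik), Cfap100 (listed as Ccdc37) and Nek5, which were chosen for naming after their values were seen. All 4 had their highest levels in metastases 1 and 3. Other fits of the 63 without the filter gave other counts. EdgeR called 10 higher, against 6.03% of all genes, and DESeq2 called 29, against 11.5%. Limma called 1 to 21 with a lung metastasis left out, against 4.94% to 9.51% of all genes. It called 0 with any 1 primary tumour left out, against 4.07% to 5.74%.

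Of 16 tested genes of the multiciliation programme, 1 (6.25%) was called higher and 0 lower, near the 7.18% of all genes (median log2 change 0.08). The call was Ccno, a cyclin needed to multiply centrioles in multiciliated cells, with 3.16, 2.35, 6.15 and 1.60 in lung metastases, against 0, 0.276, 0.472 and 0.317 in primary tumours. Its groups did not overlap (log2 change 1.68, SE 0.37, adjusted p = 0.0162). The call was lost without primary tumour 1 or 4 (adjusted p = 0.0556 and 0.0531 in limma) and in edgeR blocked by mouse (0.113). With any 1 lung metastasis left out Ccno no longer reached the filter. In limma without the filter it stayed called in those 4 cases (adjusted p = 0.00818 to 0.045). Without the filter Trp73, an upstream factor of the programme chosen for naming after its values were seen, was also called (adjusted p = 0.0358), with no read in the primary tumours; its call was lost without lung metastasis 1 and without any 1 primary tumour (limma adjusted p = 0.0785 to 0.102).

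Genes that primary cilia use as well gave few or no calls, and so did a list of factors that help dynein arms assemble. Limma called 0 of 27 intraflagellar transport genes in either direction, where 5 (18.5%) had an unadjusted p under 0.05, against 23% of all genes, edgeR called 0 higher and DESeq2 called 1 higher. The median log2 change was -0.11, and the sum of the list was 812 ± 110 in lung metastases and 936 ± 54.4 in primary tumours (SD, n = 4 each). Limma called 0 of 28 BBSome and transition zone genes (2 at an unadjusted p under 0.05, median -0.24). Axonemal dynein assembly factors, a list that also holds the general chaperones Ruvbl1 and Ruvbl2, gave 0 calls of 10 in limma as well (1 at an unadjusted p under 0.05, median -0.05). EdgeR and DESeq2 called 0 of either list higher.

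Markers of several other lung cells were also higher in lung metastases, but only some of these lists shared the members' order of metastases. Of 8 tested genes of club cells, the secretory cells that neighbour ciliated cells in the airway, 7 were called higher and 1 was called lower. The latter was Kcne3, which was chosen for naming after its values were seen. Their sum was 15616, 2976, 25755 and 4049 in lung metastases 1 to 4, against 147, 102, 113 and 46.8 in primary tumours 1 to 4. Metastases 1 and 3 were again the highest. Scgb1a1, the main secretory protein of club cells, made up 72.1% to 84.7% of the sum in lung metastases.

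The alveolar lists were higher too and put metastasis 2 above metastasis 1. Of 10 alveolar type 2 genes 8 were called higher, with sums of 5858, 7585, 12953 and 4241 in lung metastases 1 to 4, against 272, 215, 256 and 247 in primary tumours. Of 10 alveolar type 1 genes 9 were called higher, and the list summed to 1172 to 3679 in lung metastases, against 224 to 358 in primary tumours. Of 8 mesothelial genes 8 were called higher, with sums of 212 to 618 in lung metastases, against 55.6 to 143 in primary tumours. Of 8 endothelial genes 5 were called higher, with sums of 998, 775, 2476 and 540 in lung metastases 1 to 4, against 163 to 744 in primary tumours, which overlapped. Metastasis 2 lay above metastasis 1 in the mesothelial list as well. The endothelial list had metastases 3 and 1 highest, as the motile cilia and club lists did, and so did the 3 goblet genes with values, which summed to 80, 47.5, 122 and 43.6 in lung metastases 1 to 4, against 1.62 to 7.89 in primary tumours.

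With a lung metastasis left out the filter removed genes that are low in primary tumours, so that 1 of 8 mesothelial, 5 of 10 alveolar type 2 and 4 club genes remained to be tested. Of these, 0 to 1, 2 to 4 and 2 to 3 were called higher in those lists. Without the filter, leaving out a lung metastasis gave 7 to 8 mesothelial, 8 to 9 alveolar type 2 and 7 to 8 club genes called higher. The endothelial count ran from 2 to 6 with any library left out: it was 2 without lung metastasis 1 or without primary tumour 1, 3 or 4, and 3 without lung metastasis 2, and edgeR gave 3.

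**Figure D3:**
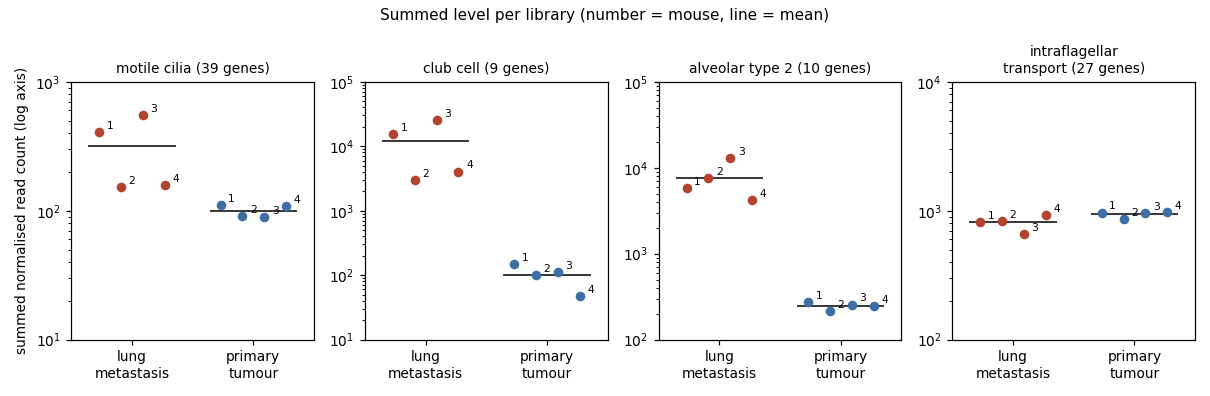
Summed normalised read count of 4 gene lists in each lung metastasis and primary tumour, on log axes, with the mouse number beside each point and a line at the mean. Motile cilia and club cell genes share the order of metastases, with 1 and 3 high, while alveolar type 2 genes put metastasis 2 second and intraflagellar transport overlaps between the groups.

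The surplus of motile cilia transcripts was set against each list, a ratio chosen after seeing the data. The sum of the 39 members in a metastasis minus the mean of the primary tumours was 306, 53.6, 452 and 59.6 in metastases 1 to 4, an 8.44-fold range. Per 1000 of the same surplus of the club list it was 19.7, 18.7, 17.6 and 15.1, a 1.30-fold range, and 1.83-fold with Scgb1a1 left out of the list. Per 1000 of the alveolar type 2 surplus it was 54.5, 7.31, 35.6 and 14.9, a 7.46-fold range.

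The range was 7.77-fold for the alveolar type 1 list, 25.7-fold for mesothelium and 3.73-fold for endothelium. Of the 5 lists compared, the club list gave the narrowest range. The 4 values are a description of 4 libraries, and the part of airway content in the differences between the groups was not tested.

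**Figure D4:**
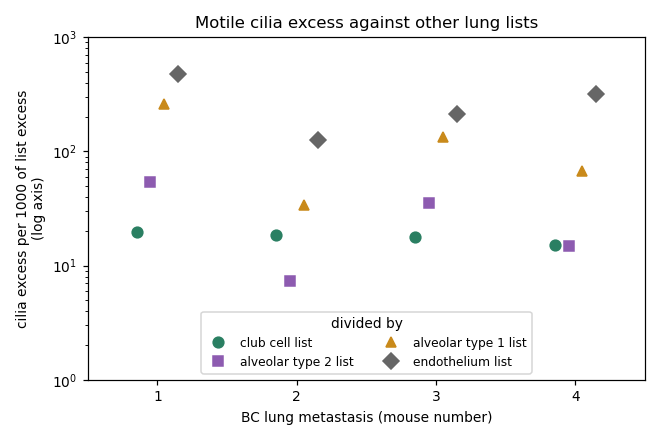
Surplus of the 39 motile cilia genes over the primary tumour mean, per 1000 of the surplus of a marker list, in each of the 4 BC lung metastases (log axis). Circles, for the club cell list, stay between 15.1 and 19.7, while squares, for alveolar type 2, run between 7.31 and 54.5.

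Lists of other cell types with axonemes or airway origin had few genes to test. Of 4 tested basal cell genes limma, edgeR and DESeq2 called 0 higher (0 at an unadjusted p under 0.05), and the list summed to between 7.16 and 47.9 in lung metastases, against 9.20 to 31.0 in primary tumours. The goblet list had 1 tested gene, Muc1, which was called higher, and Muc1 is also made by alveolar and tumour epithelium. Of 14 sperm cell genes only Gapdhs had values, at 1.46 to 4.19 in lung metastases, against 2.54 to 3.27 in primary tumours (adjusted p = 0.608). Of 3 tested neuroendocrine genes 1, Syp, was called higher (adjusted p = 0.028), a call that edgeR and DESeq2 did not make; Chga and Cplx2 had negative changes that were not called (log2 change -1.26 and -1.01, adjusted p = 0.44 and 0.171 in limma).

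Simple epithelium genes, which 4T1 tumour cells carry as well, had 1 of 10 called higher (Krt19) and 1 called lower (Cldn4). Their sum was 1106 to 3497 in lung metastases, against 1614 to 2933 in primary tumours, with overlap.

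Transcript length moved with the difference between metastases 3 and 1. Among all genes the median log2 ratio of metastasis 3 to metastasis 1 was -0.41 for exon lengths up to 2 kb, -0.17 from 2 to 4 kb, 0.05 from 4 to 8 kb, 0.26 from 8 to 12 kb and 0.58 above 12 kb. Among the members the median in the same classes was 0.13 (11 genes), 0.64 (8 genes), 0.72 (16 genes), -0.06 (3 genes) and 1.62 (11 genes), so the class from 8 to 12 kb did not follow the order. The 10 heavy chains had a median of 1.64, and the 39 members matched by symbol had 0.43.

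Across 49 members Spearman's rho of length with this ratio was 0.46, and across 13460 genes it was 0.24; genes of a library are not independent, and all points share the same 2 libraries. The heavy chains stood highest in the library where long transcripts in general ran high, which was also the library of lowest depth. Dnah17, a chain known from sperm and listed as Dnahc17, was chosen for naming after its values were seen. It had 19.4, 16.7, 105 and 9.24 in lung metastases, against 30.1, 25.7, 16.9 and 24.4 in primary tumours. Thus Dnah17 too was highest in metastasis 3 without being higher in the others. The part of transcript length in the level of any member was not tested.

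**Figure D5:**
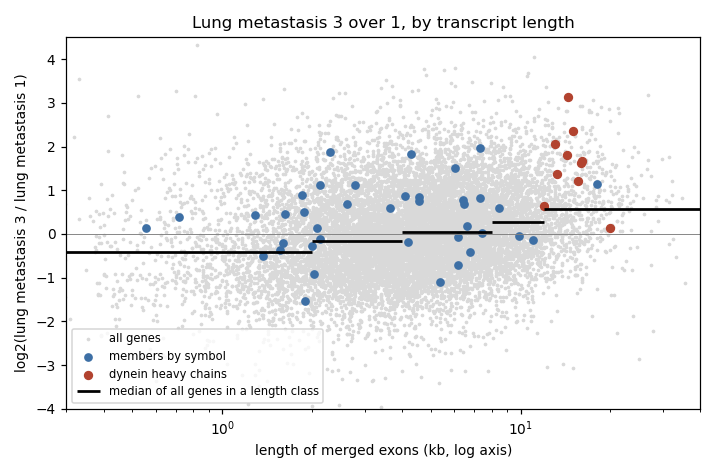
Log2 ratio of lung metastasis 3 to lung metastasis 1 for each gene against the length of its merged exons in kilobases (log axis), with heavy chains in red, members matched by symbol in blue and all genes in grey. Black lines give the median of all genes in 5 length classes, which goes up with length, and 9 of the 10 heavy chains lie above the line of their class.

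The calls were not equally firm. Tppp3 was called in all 17 alternative settings in which it was tested, with adjusted p from 1.88e-09 to 0.0201. Dynlrb2 lost its call with a pseudocount of 5 (adjusted p = 0.059) and in no other of 13 settings. Rsph9 lost it without lung metastasis 1, without primary tumour 4 and in edgeR blocked by mouse (0.0567 to 0.0743). Rsph1 lost it with a pseudocount of 5 and without primary tumour 1, 3 or 4 (0.0615 to 0.0748).

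Ccdc153 lost its call with a pseudocount of 5 and without any 1 of the 4 primary tumours (0.0586 to 0.0923). Ccdc40 and Dnaic2 lost theirs in 9 and 10 settings (adjusted p up to 0.145 for Ccdc40 and 0.214 for Dnaic2). Among these were median-ratio scaling, edgeR, blocking by mouse and the removal of any 1 primary tumour. With any 1 lung metastasis left out, Dynlrb2, Rsph1, Ccdc153, Ccdc40 and Dnaic2 no longer reached the filter. Those settings are not among their 13. Without the filter, only Tppp3 and Dynlrb2 stayed called without lung metastasis 1. All 7 stayed called without lung metastasis 2, and all but Dnaic2 without 3 or 4.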

How the data were processed

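RNA of bulk tumour tissue was sequenced after extraction with an RNeasy kit and a TruSeq library kit, per the labels' protocols, which do not describe strand marking. The build was mm9, per the submitters' processing notes; for the aligner, the counter and the gene annotation, the names were not given in the sources used here. The authors deposited 1 table of signal values, that is normalised read counts, whose BC column totals ran from 962401 to 1044330, so they are not the plain CPM the design had assumed. Divided by the value of 1 read, all entries (100%) came out whole within 0.05 reads, which gave back reads and depth.

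The 8 BC columns were used and the 12 PDAC columns were not: 22117 of their rows have no identifier, and across rows their means followed those of BC with a Spearman's rho of 0.102. Groups came from the labels. Limma 3.58.1 (R 4.3.3) with an intensity trend was fitted to log2(value + 1) with group means only, over all 14003 genes that reached 1 in 4 or more of the 8 libraries, and p-values were Benjamini-Hochberg adjusted over all of them. The mouse numbers in the titles pair the groups, because they name the same animals and the series describes matched tumours; deviations from the group means correlated at -0.15 to 0.096 between libraries of 1 mouse. Without a group read, folds were computed as the mean of the other group over 3 reads per library.

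Alternatives were pseudocounts of 0.1 and 5, no filter, a filter in at least 2 libraries, median-ratio scaling, the mouse as a replicate block, edgeR 4.0.16 with and without that block, DESeq2 1.42.0 and the removal of each library in turn. Combinations of no filter with removals, block, edgeR and DESeq2, the second promoter motif and the surplus ratios were added after seeing the data. The scripts were tested on simulated data. The members, lists and tests were chosen with earlier results of these data known. All members may be named, and of each other list up to 4 tested genes with the smallest p, with Dynlrb1 and Tppp as relatives of members. Other names given with a result are marked as chosen afterwards. Promoters are RefSeq sequences of GRCm38.p6, matched by symbol for 40 of 49 members; exon lengths are of GENCODE on GRCm38.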

Additional observations from a re-analysis of the deposited data

Results flagged for a closer look

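Of 85 groups of 4 libraries with any spread, 15 held a library far from the other 3, against about 1 in 20 by chance for normally distributed values; 5 were lung metastases and 10 were primary tumours. In lung metastasis 3, Rfx2 stood at 38.1 (7.33 to 9.73 in the other lung metastases), Dnah2 at 15.5 (1.71 to 3.04) and Dnah11 at 9.33 (0.996 to 1.09). Tekt2 stood at 6.84 in lung metastasis 1 (2.10 to 2.37 in the others), and Ccdc39 was low at 2.86 in lung metastasis 4 (5.94 to 6.22). In primary tumour 3, Dnah11 stood at 3.07 (0.176 to 0.355 in the other primary tumours), Dnah12 at 0.775 (0 to 0.0397), Fank1 at 0.371 (0 in the others), and Dnaic2 was low at 0.27 (0.845 to 0.947).

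In primary tumour 1, Dnaic1 stood at 1.35 (0 in the others) and Rfx2 was low at 2.94 (5.09 to 5.44). In primary tumour 2, Dnah9 stood at 0.158, Dnali1 at 0.118, Rsph1 at 0.0789 and Lrriq1 at 0.0394, each with 0 in the other primary tumours. Those last 4 values rest on 1 to 4 reads. In 6 of the 15 the other 3 libraries were at 0, where any read stands apart, so that the chance rate does not hold for them.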

How the results depend on the processing

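Members called higher were 7 in the main test, 2 with a pseudocount of 5, 4 with edgeR and a replicate block, 12 with DESeq2, and 1 to 5 when a library was left out; under the filter, leaving out a metastasis also leaves fewer members to test. Without the filter they were 9, with 25 in DESeq2 and 2 to 15 with a library left out. They were 2 without lung metastasis 1 and 15 without lung metastasis 4. They were 3 without primary tumour 1, 5 without 2, 3 without 3 and 2 without 4. Of all genes tested, 7.18% were called higher in the main test, 7.03% with a pseudocount of 0.1 and 6.02% with 5. These shares were 6.68% with the replicate block, 6.02% with edgeR, 4.33% with edgeR and the block and 10.5% with DESeq2. With a library left out they were 3.36% to 6.47%. Without the filter they were 6.9%, with 11.5% in DESeq2 and 4.07% to 9.51% with a library left out. No member was called lower in any setting. With the mouse as a replicate block, 5 of the 7 stayed called. Dnaic2 and Ccdc40 did not, and Dnah5 was added. The block changed no other member's call. Without the filter the block called 7 members. These were the same 5 with Spag17 and Spef2, and again not Dnaic2 or Ccdc40.

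Heavy chains called were 0 in the main test, 2 with a pseudocount of 0.1, 1 with the replicate block, 2 with edgeR, 1 with edgeR and the block and 3 with DESeq2. Further axoneme genes called were 1, and 0 with a pseudocount of 5, with median-ratio scaling, with edgeR, with edgeR and the block and with any library left out (0 to 0); they were 4 without the filter or with the filter in 2 libraries, 2 with the replicate block and 5 with DESeq2. Genes changed were 1279, 693 with edgeR and the block, 1985 with DESeq2 and 563 to 1155 with a library left out.

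The sign of Ift172 reversed to -0.035 without lung metastasis 3 and to -0.02 without primary tumour 2, of a range with a library left out of -0.035 to 0.18, and the cause was not tested. Of 400 comparisons of a member with an alternative, 350 kept direction and side of the threshold, 32 lost a call, 16 gained one and 2 reversed. Depth limits the low members most: a read was worth up to 0.0676, and many members rest on few reads in primary tumours.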

Other observations

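Among the 63 further axoneme genes with values, 18 had no read in any primary tumour, against 1.29% of all genes. Dnah8, a heavy chain known from sperm and listed as Dnahc8, had 6.21, 7.15, 55.8 and 3.49 in lung metastases, against 0, 3.59, 1.72 and 0.458 in primary tumours (limma adjusted p = 0.0768), so metastasis 3 stood alone. Drc3 (listed as Lrrc48), of the nexin-dynein regulatory complex, had 11.9, 3.52, 13 and 3.32 in lung metastases, against 3.10, 1.97, 1.55 and 0 in primary tumours (limma adjusted p = 0.0823), with no overlap and with metastases 1 and 3 high. Ccdc78, which helps to multiply centrioles, had 6.80, 1.49, 10.9 and 1.93 in lung metastases, against 2.07, 0.749, 0.438 and 0.775 in primary tumours (limma adjusted p = 0.131), and metastases 1 and 3 were again the highest. Cfap300 (listed as 9230110C19Rik), an assembly factor, went the other way in level, with 6.68, 7.65, 1.08 and 8.36 in lung metastases, against 11.2, 14.2, 17.3 and 11.8 in primary tumours (limma log2 change -1.27, adjusted p = 0.124).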
